A study of Mus musculus with 8 samples.

Results

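Endothelial cells line the blood vessels, and in the liver most of them belong to the sinusoids, the thin-walled channels between the plates of hepatocytes. Sinusoidal endothelium has open pores and little basement membrane, and it takes up waste from the blood through scavenger receptors. Endothelium of larger vessels and of ordinary capillaries instead carries more of the junction and clotting proteins shared by vessels elsewhere. The 10 genes described here mark these cells. They are 5 receptors that mark the sinusoidal type (Lyve1, Stab1, Stab2, Clec4g and Fcgr2b) and 5 genes of vascular endothelium at large (Pecam1, Kdr, Cdh5, Vwf and Plvap). They were chosen by name, as known markers but with earlier results of these data known, and found on the arrays through the RefSeq accession of each probe. All 10 genes were found, with 12 probes among 55681 on the array, since Kdr and Plvap have 2 probes each. All 12 probes were well above background on all 8 arrays, so none of the 10 genes depended on the filter for dim probes. Endothelial RNA was therefore measurable in these livers, while RNA of a whole organ cannot separate fewer cells of a type from less RNA per cell.

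The livers came from male C57BL/6 mice bought at 5 weeks of age and then fed for 3 or 9 months. Feed held 4.8% fat in the normal diet groups (ND) and 58% fat in the high-fat diet groups (HFD). The 4 groups were ND 3 months, HFD 3 months, ND 9 months and HFD 9 months, with 2 mice and 2 arrays in each. The study's title names liver inflammation on high-fat feeding as its subject. Each array measured Cy3-labelled RNA of 1 liver. The 75th percentile of the intensity ran from 185 to 597 over the arrays, and 40.6% to 54.1% of the spots were well above background. The lowest of both values came from HFD 9 months replicate 2. The ND mice were all hybridised on 1 slide and the HFD mice on a second, so diet and slide cannot be told apart in any value below. Row 1 of both slides held the mice of 3 months and row 2 those of 9 months, so time and row cannot be told apart either. Only 2 arrays a group limit the precision of every value.

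Levels below are log2 signals relative to the 75th percentile of the same array, so a level of 0 equals that percentile and a difference of 1 is a doubling. Log2 fold changes carry the SE of a limma fit of all 8 arrays (n = 2 mice per group). A gene was called when its p, adjusted by the Benjamini-Hochberg method over all 20164 features tested, was under 0.05. Levels of different genes were not compared, because each probe has its own brightness.

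Promoter sequences were at hand for 5 of the 10 genes, from RefSeq on build GRCm38.p6. Printed here are the 250 bases before the transcription start of the 3 among them that were called when diets were compared over both durations. Stab2 and Fcgr2b were higher on HFD in that comparison, and Kdr was lower by the brighter of its 2 probes, which disagree. They lie at chr10:87007943-87008192 (Stab2), chr1:170976072-170976321 (Fcgr2b) and chr5:75978456-75978705 (Kdr). Each reads 5′ to 3′ on the strand of the gene, which is the minus strand in all 3 cases. Capitals mark matches to short motifs of factors known from endothelial cells, searched on both strands. Factors of the ETS family were searched as AGGAAG, and those of the GATA family as AGATAA. The letters used for SOX factors were AACAAT, and for FOX factors they were GTAAACA. A MAF half-site was read as TGCTGA, and the motifs do not contain one another.

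Stab2: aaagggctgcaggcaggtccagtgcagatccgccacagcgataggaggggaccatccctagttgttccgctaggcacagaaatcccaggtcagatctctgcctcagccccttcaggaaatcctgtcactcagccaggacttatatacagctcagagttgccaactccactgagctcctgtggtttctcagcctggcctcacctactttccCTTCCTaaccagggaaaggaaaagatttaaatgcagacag
Fcgr2b: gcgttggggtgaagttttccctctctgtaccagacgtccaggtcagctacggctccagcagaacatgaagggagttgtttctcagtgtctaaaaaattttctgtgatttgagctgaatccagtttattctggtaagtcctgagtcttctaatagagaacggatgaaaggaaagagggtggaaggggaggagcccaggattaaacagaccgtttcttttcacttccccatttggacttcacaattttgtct
Kdr: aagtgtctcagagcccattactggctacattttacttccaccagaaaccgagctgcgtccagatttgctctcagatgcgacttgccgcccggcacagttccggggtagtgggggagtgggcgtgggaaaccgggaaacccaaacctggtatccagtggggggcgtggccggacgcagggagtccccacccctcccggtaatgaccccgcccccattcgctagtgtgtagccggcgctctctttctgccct

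The Stab2 promoter held 1 match, CTTCCT, the reverse complement of the ETS motif, which begins 40 bases before the start. The windows of Fcgr2b and Kdr held 0 matches to these letters. Of the promoters not printed, Clec4g held 3 ETS matches, of which 2 overlap, and Stab1 held 1 ETS match and 1 MAF half-site. Among all 32851 promoter windows of the same length in that table, 29.5% held the ETS motif, 9.99% the GATA motif, 9.42% the SOX motif, 3.17% the FOX motif and 16.1% the MAF half-site. A match of this kind describes the letters only.

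The comparison of diets asked which markers of liver endothelium differ on high-fat feeding, early and late. The 5 sinusoidal receptors all stood higher in the 2 HFD mice than in either ND mouse, at 3 months and again at 9 months, a pattern met by 18.8% of all features. Among the 5 vascular genes the answer for Kdr depended on the probe. With its brighter probe 0 of the 5 were higher in that way and Kdr was lower at both times, and with its other probe 1 of the 5, Kdr, was higher at both. A single gene passed the test at 3 months, Lyve1, at 2.28 ± 0.34 (4.86-fold). At 9 months 0 of the 10 passed. Over both durations Lyve1, Stab2 and Fcgr2b rose and Kdr, by that probe, fell. The background differed between these tests: limma called 5.18% of all features at 3 months (1.51% higher and 3.67% lower), 8.28% at 9 months (3.56% higher and 4.73% lower) and 22.1% over both durations (10.3% higher and 11.8% lower). The median fold change of the 10 was 0.61 at 3 months and 0.61 at 9 months, against -0.01 and 0.02 over all features.

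**Figure D1:**
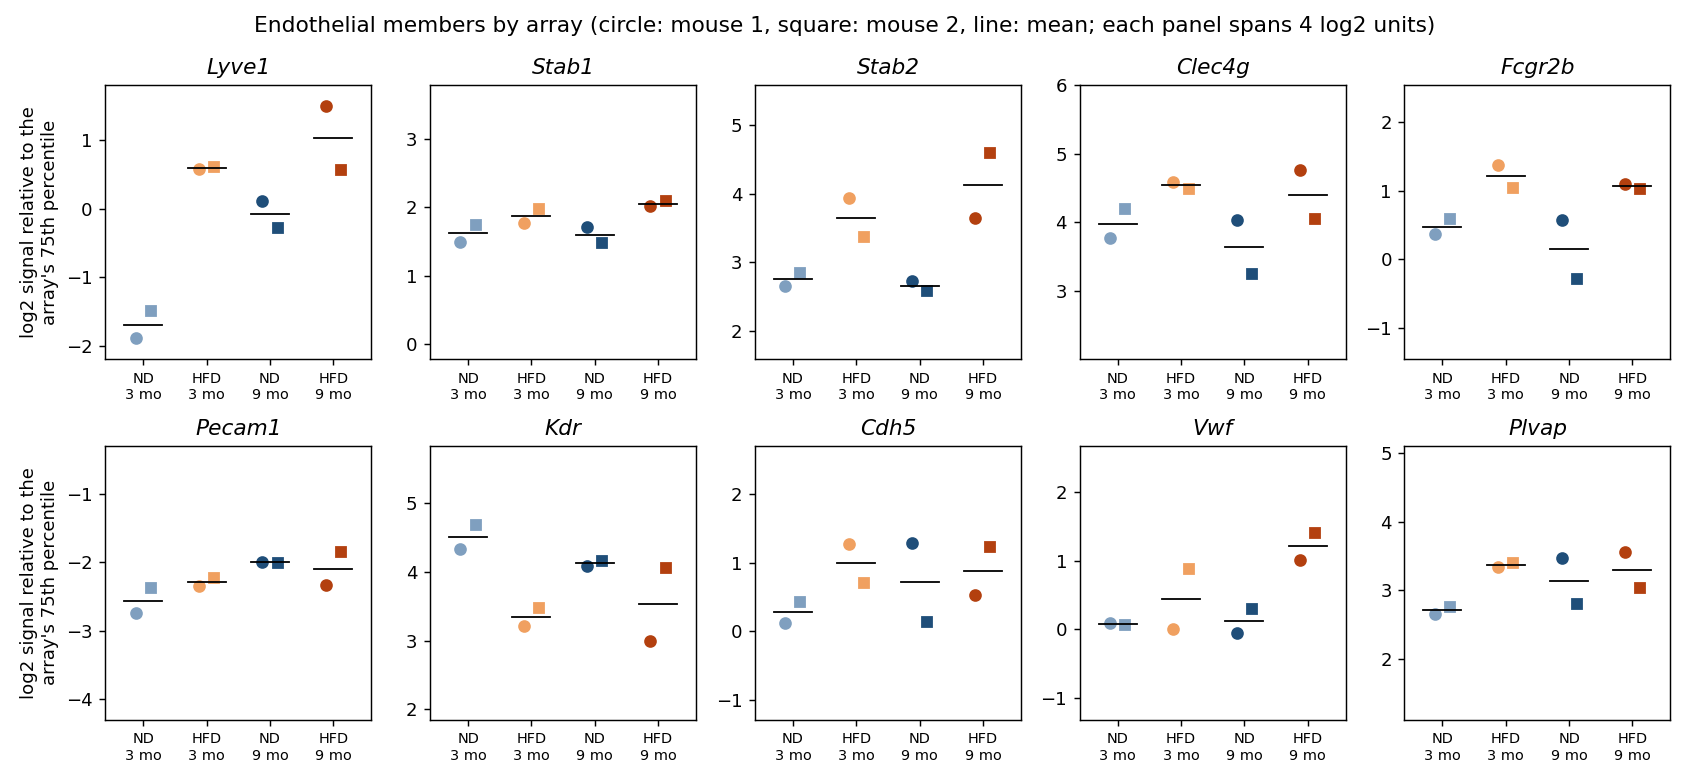
Level of each endothelial marker on each array, as log2 signal relative to the array's 75th percentile (vertical axis; each panel spans 4 log2 units), by diet and feeding time. Circles are mouse 1, squares mouse 2 and lines group means; Lyve1 goes from a mean of -1.69 on ND to 0.59 on HFD at 3 months, while the 2 mice of a group differ widely for Cdh5. Kdr and Plvap are drawn by their brighter probe.

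Lyve1 encodes a hyaluronan receptor of sinusoidal and lymphatic endothelium that some tissue macrophages carry as well. Its level was -1.89 and -1.49 on the ND arrays of 3 months and 0.58 and 0.61 on the HFD arrays of that time. At 9 months it was 0.11 and -0.28 on ND and 1.50 and 0.57 on HFD. The ND mice of 3 months thus stood below every other array, and HFD exceeded ND without overlap at both times. At 3 months the change of 2.28 ± 0.34 passed (limma, adjusted p = 0.025), and leaving out 1 array moved it between 2.08 and 2.48. The call ended without any single array of 3 months, and calls over all features also varied widely with 1 array left out. At 9 months the difference was 1.12 ± 0.34 (95% interval 0.29 to 1.95, adjusted p = 0.096). The 2 differences were not shown to differ from each other (-1.16 ± 0.49, adjusted p = 0.66). Over both durations Lyve1 rose by 1.70 ± 0.31 (limma, adjusted p = 0.012), a call that held with any 1 array left out.

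Lyve1 also had the largest difference with time among the 10 on ND. From 3 to 9 months it stood 1.61 ± 0.34 higher on ND (adjusted p = 0.099), with no overlap between the arrays. On HFD the same difference was 0.44 ± 0.34 (95% interval -0.38 to 1.27), with overlap. The ND difference passed without HFD 9 months replicate 1 or HFD 9 months replicate 2. Its 4 group means therefore ran from ND 3 months through ND 9 months and HFD 3 months to HFD 9 months, and only the last 2 overlapped.

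The stabilins are large scavenger receptors of the sinusoid that clear hyaluronan, modified lipoproteins and other waste. Stab2 had levels of 2.65 and 2.85 on ND and 3.93 and 3.36 on HFD at 3 months. After 9 months they were 2.73 and 2.57 on ND and 3.64 and 4.60 on HFD. The 4 ND arrays lay within a narrow band below all 4 HFD arrays, whose spread was wider. The difference was 0.90 ± 0.36 at 3 months (adjusted p = 0.18) and 1.47 ± 0.36 at 9 months (95% interval 0.61 to 2.33, adjusted p = 0.057). Over both durations Stab2 rose by 1.18 ± 0.26 (2.27-fold, limma, adjusted p = 0.020). That call ended without ND 3 months replicate 1, HFD 3 months replicate 1 or ND 9 months replicate 2. At 9 months Stab2 passed without HFD 9 months replicate 1 and by normexp values, the authors' value table, a stricter probe filter or moderation with trend and robust settings.

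Stab1, which macrophages of many tissues also express, was the other stabilin. It stood at 1.49 and 1.74 on ND and at 1.77 and 1.98 on HFD at 3 months, and at 1.72 and 1.48 on ND and 2.02 and 2.09 on HFD at 9 months. All 4 HFD arrays were above all 4 ND arrays, by as little as 0.26 ± 0.19 on average at 3 months and 0.46 ± 0.19 at 9 months. Neither difference passed (adjusted p = 0.43 and 0.18), nor did that over both durations (0.36 ± 0.14, 95% interval 0.04 to 0.68, adjusted p = 0.098). Stab1 passed over both durations with normexp values and with the authors' value table (0.41 in both).

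Clec4g encodes LSECtin, a C-type lectin of liver and lymph node sinusoids. Its levels were 3.76 and 4.20 on ND and 4.59 and 4.49 on HFD at 3 months. At 9 months they were 4.04 and 3.24 on ND and 4.77 and 4.04 on HFD. The separation at 9 months was narrow: the higher ND array (4.036) lay just under the lower HFD array (4.042). The differences of 0.56 ± 0.36 and 0.77 ± 0.36 did not pass (adjusted p = 0.36 and 0.22), nor did 0.66 ± 0.24 over both durations (95% interval 0.09 to 1.23, adjusted p = 0.087).

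Fcgr2b encodes the inhibitory Fc receptor that sinusoidal endothelium uses to remove small immune complexes, and B cells and macrophages carry it too. Its probe is spotted 10 times, which gives it a firmer value per array than most. The levels were 0.37 and 0.58 on ND and 1.37 and 1.04 on HFD at 3 months, and 0.58 and -0.29 on ND and 1.10 and 1.03 on HFD at 9 months. Every HFD array was above every ND array. Neither time passed alone (0.73 ± 0.31, adjusted p = 0.20, and 0.92 ± 0.31, adjusted p = 0.12). Over both durations Fcgr2b rose by 0.83 ± 0.21 (1.77-fold, limma, adjusted p = 0.031), a call that held in 3 of 8 cases with 1 array left out. It ended without ND 3 months replicate 1, ND 3 months replicate 2, HFD 3 months replicate 1, ND 9 months replicate 2 or HFD 9 months replicate 1. Of the B cell markers 4 of 7 were tested, 3 with a positive difference at each time, while Cd22 fell at 9 months (-1.61 ± 0.30, adjusted p = 0.029) and Cd79a and Pax5 were not well above background on both arrays of any group. The summed level of those 4 ran from 1.50 to 2.80 on the ND arrays and from 1.70 to 2.61 on the HFD arrays, so the diets overlapped.

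**Figure D2:**
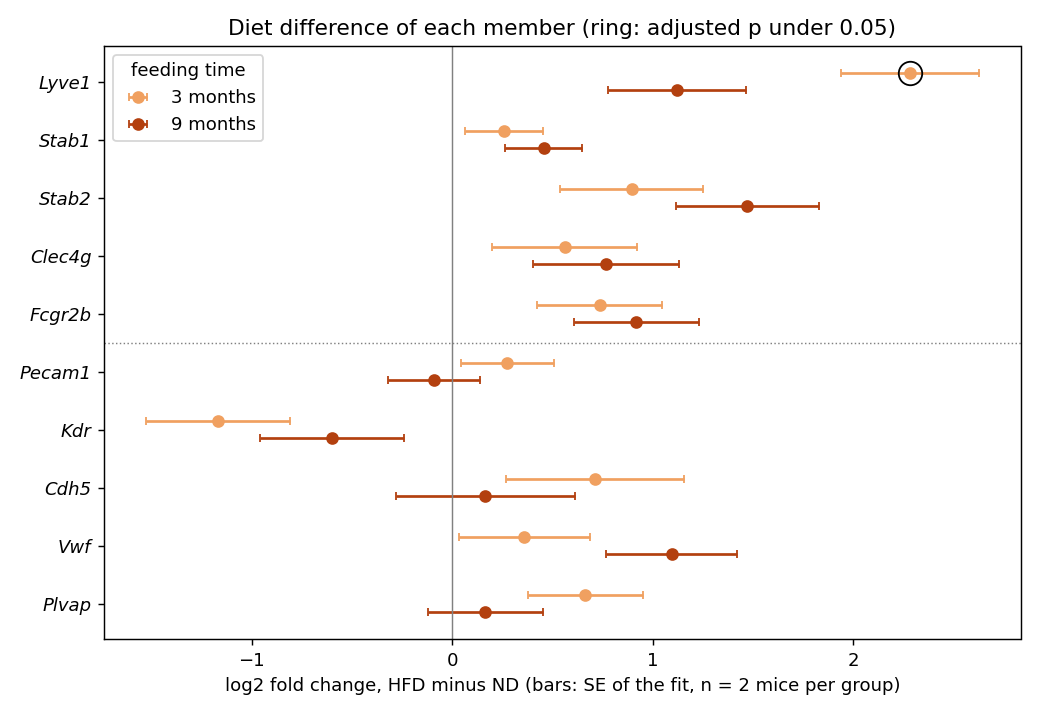
Log2 fold change of each marker between diets (horizontal axis, HFD minus ND) at 3 and at 9 months, with the SE of the limma fit as bars (n = 2 mice per group). The 5 sinusoidal genes above the dotted line are positive at both times, and the ring marks the single call, Lyve1 at 3 months (2.28 ± 0.34).

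Kdr encodes VEGF receptor 2, the main receptor through which endothelial cells respond to the growth factor VEGF. Its probes disagreed. The brighter probe (A_55_P2094469) had levels of 4.33 and 4.69 on ND and 3.21 and 3.47 on HFD at 3 months, then 4.09 and 4.17 on ND and 3.00 and 4.06 on HFD at 9 months. It was lower on HFD at both times, at 9 months by a narrow margin between HFD replicate 2 and the lower ND array. The fold changes were -1.17 ± 0.36 (95% interval -2.04 to -0.30, adjusted p = 0.11) and -0.60 ± 0.36 (adjusted p = 0.32). Over both durations the probe fell by 0.88 ± 0.26 on the log2 scale (limma, adjusted p = 0.0486). With 1 array left out this held in 1 of 8 cases, the one without HFD 9 months replicate 2.

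The second Kdr probe (A_51_P316553), spotted 10 times, read 2.31 and 2.72 on ND and 2.80 and 2.81 on HFD at 3 months. At 9 months it read 2.37 and 2.08 on ND and 2.54 and 2.79 on HFD. It was thus higher on HFD at both times where the first was lower, by 0.29 ± 0.23 and 0.44 ± 0.23, with neither past the threshold in the fit of all kept probes (adjusted p = 0.46 and 0.27). Within an array the first probe exceeded the second by 1.72 to 2.08 on the ND slide and by 0.41 to 1.27 on the HFD slide. The direction of Kdr as a gene is therefore not settled by these arrays, and with the mean of both probes the gene was not called in any comparison. In the fit of all kept probes the first probe also missed the threshold over both durations (adjusted p = 0.0516).

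Plvap, the protein of the diaphragms that span endothelial pores, also has 2 probes, and these moved alike. The brighter probe had levels of 2.66 and 2.75 on ND and 3.33 and 3.40 on HFD at 3 months, and of 3.46 and 2.80 on ND and 3.56 and 3.03 on HFD at 9 months. The other one read -1.09 and -0.84 on ND and 0.15 and 0.21 on HFD at 3 months, and -0.06 and -0.60 on ND and 0.13 and -0.68 on HFD at 9 months. Both probes parted the diets at 3 months and overlapped at 9 months. For the brighter probe the differences were 0.66 ± 0.29 (95% interval -0.03 to 1.36, adjusted p = 0.20) and 0.16 ± 0.29 (adjusted p = 0.74). With array weights Plvap passed over both durations (0.56), where the unweighted value was 0.41 ± 0.21 (adjusted p = 0.19).

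**Figure D3:**
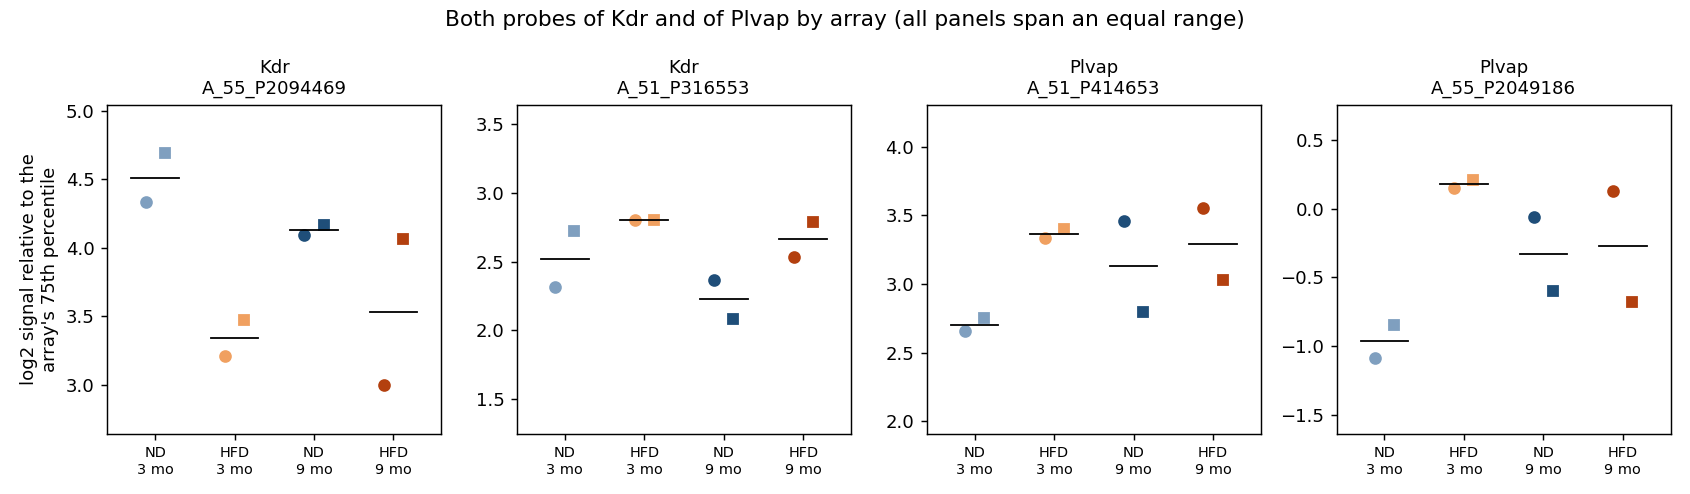
Both probes of Kdr (left pair) and of Plvap (right pair) on each array, as log2 signal relative to the array's 75th percentile (vertical axis, an equal range in all panels). Circles are mouse 1, squares mouse 2 and lines group means; the Kdr probes go opposite ways with diet (-1.17 and 0.29 at 3 months), and those of Plvap go the same way.

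Vwf, the clotting factor stored by endothelium of larger vessels and low in healthy sinusoids, had levels of 0.095 and 0.064 on ND at 3 months. The HFD arrays of that time read 0.0031 and 0.88. At 9 months the levels were -0.056 and 0.29 on ND and 1.02 and 1.41 on HFD. HFD replicate 1 of 3 months stood with the ND mice, and the other three HFD arrays stood above all 4 ND arrays. The difference was 0.36 ± 0.33 at 3 months (adjusted p = 0.51) and 1.09 ± 0.33 at 9 months (95% interval 0.31 to 1.88, adjusted p = 0.091). From 3 to 9 months on HFD it was 0.77 ± 0.33 without overlap (adjusted p = 0.33), and on ND 0.04 ± 0.33. Without HFD 3 months replicate 1, Vwf rose over both durations. Platelets and their precursors also make Vwf. Of 7 platelet markers 3 were tested, and their summed level was 1.01 to 1.13, 1.40 to 1.43, 1.14 to 2.91 and 2.53 to 12.0 in ND 3 months, HFD 3 months, ND 9 months and HFD 9 months. None of the 3 passed between diets, the surface marker Itga2b was not well above background on both arrays of any group, and the part of platelets in the Vwf values was not tested.

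Pecam1 and Cdh5 encode adhesion proteins of the junctions between endothelial cells and are used as general markers of the lineage. Pecam1 read -2.74 and -2.38 on ND and -2.35 and -2.22 on HFD at 3 months, and -1.99 and -2.01 on ND and -2.33 and -1.86 on HFD at 9 months. Its differences between diets were 0.27 ± 0.23 and -0.09 ± 0.23, with a 95% interval of -0.31 to 0.49 for the value over both durations (0.09 ± 0.17). On ND it stood 0.56 ± 0.23 higher at 9 than at 3 months, without overlap (adjusted p = 0.32). Cdh5, also called VE-cadherin, read 0.13 and 0.43 on ND and 1.27 and 0.71 on HFD at 3 months, then 1.29 and 0.14 on ND and 0.54 and 1.22 on HFD at 9 months. The 2 ND mice of 9 months differed from each other more than any diet means did, and the Cdh5 differences of 0.71 ± 0.45 and 0.16 ± 0.45 did not pass (adjusted p = 0.35 and 0.84).

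Across the 10 genes, 9 fold changes were positive at 3 months and 8 at 9 months, against 49.5% and 51.1% of all features. These counts take Kdr by its brighter probe, and with the other probe they were 10 and 9. Because the 10 were chosen with earlier results of these data known, the shares beside these counts describe the background and are no test of the set. The differences of the 5 sinusoidal genes were positive at both times in all 21 alternative settings. Only a change of normalization or of the signal used could have turned these signs. Each of these genes has 1 probe, and its arrays do not overlap between diets at either time. In number without overlap, 8 genes were higher and 1 lower at 3 months, where 35.6% of all features were higher and 35.4% lower in this way. At 9 months 6 were higher and 1 lower, against 28.5% and 26.1%. The lower gene was Kdr at both times, and with its other probe the counts were 9 higher and 0 lower at 3 months and 7 higher and 0 lower at 9 months. Over both durations 4 were higher and 1 lower on all 4 HFD arrays, against 11.5% and 14% of all features. At an unadjusted p under 0.05, limma counted 3 of the 10 at 3 months and 4 at 9 months, beside 26.3% and 28.7% of all features.

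The comparisons of 9 with 3 months asked how the markers change with time on each diet. On ND limma passed 0 of 10 (1 at an unadjusted p under 0.05, as were 15.9% of all features), where 1.04% of all features passed, 0.441% higher and 0.595% lower. Without overlap, 3 were higher at 9 months (Lyve1, Pecam1 and Plvap) and 1 lower (Kdr, brighter probe), against 23.4% and 37.1% of all features. On HFD 0 of 10 passed (0 at an unadjusted p under 0.05, as were 15.5% of all features), where 0.00992% of all features passed, 0.00496% higher and 0.00496% lower. Without overlap, 2 were higher (Stab1 and Vwf) and 0 lower by the brighter probes, against 21% and 23.3%. By their other probes Kdr (-0.14) and Plvap (-0.45) were both lower without overlap. The medians were 0.01 on ND and 0.18 on HFD, against -0.07 and -0.0043 over all features. With the other Kdr probe the HFD median was 0.05. The change of the diet difference between durations was not called for any of the 10 (0 at an unadjusted p under 0.05, against 7.62% of all features) or any other feature, and the share of all features called was 0%. Its estimates ran from -1.16 for Lyve1 to 0.73 for Vwf. These comparisons share groups with those of diet, so their values are not independent of them.

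Other genes of the sinusoid, from a list of 16 of which 14 were tested, lay mostly above ND at both times. At 3 months 11 differences were positive and 0 passed (median 0.89). At 9 months 12 were positive and 3 rose (median 0.56). These were Tfpi, an inhibitor of the tissue factor pathway (1.60 ± 0.30, adjusted p = 0.031), F8, the clotting factor that liver endothelium makes (1.13 ± 0.23, adjusted p = 0.037), and Flt4, VEGF receptor 3 (1.66 ± 0.34, adjusted p = 0.038, with 1 ND array of 9 months near background). Over both durations 5 of 14 rose, led by Tfpi, F8, Maf (a transcription factor of sinusoidal identity, 1.10 ± 0.20) and Flt4, and the fifth was the lipid receptor Cd36 (1.67 ± 0.32), which hepatocytes also express. The mannose receptor gene Mrc1 (0.88 ± 0.39 at 3 months) and the sinusoidal receptor gene Gpr182 (-0.09 ± 0.31) did not pass. Diet calls in this and the following lists stand beside 1.51%, 3.56% and 10.3% of all features called higher at 3 months, at 9 months and over both durations. The shares called lower were 3.67%, 4.73% and 11.8%.

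A list of 24 further pan-endothelial genes was tested in full. At 3 months 20 differences were positive and 1 gene rose, Emcn, a sialomucin of the endothelial surface, at least 1.80-fold because it was not well above background on ND (limma, adjusted p = 0.040). This bound replaces each dim ND value by the weakest signal on its array that counted as above background. The measured means at 3 months were -3.16 on HFD and -5.21 on ND. Emcn was tested only because it passed the filter for dim probes in HFD 3 months, so its calls are not independent of that filter. It was not well above background on any ND array of either duration. At 9 months 21 were positive (median 0.75) and 3 rose: Emcn, with 1 of 2 HFD arrays above background, and the transcription factor genes Tal1 (1.86 ± 0.36) and Sox7 (2.53 ± 0.50, with 1 ND array near background). Over both durations 9 rose and 0 fell. After Emcn the smallest p-values were those of Cd93, a surface glycoprotein (1.00 ± 0.22), Erg, an ETS factor of endothelium (0.99 ± 0.22, with an ND array of each duration near background), and Icam2, an adhesion molecule (1.26 ± 0.28). Erg passed the filter for dim probes only through the HFD groups.

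Among ligands and receptors of the VEGF, angiopoietin and Notch pathways, which direct vessel growth, 15 of 18 were tested. At 3 months 7 differences were positive and 0 passed (median -0.21). At 9 months 10 were positive and 2 rose (median 0.61), namely Angpt2, an antagonist of the receptor Tie2 made by activated endothelium (2.40 ± 0.50, adjusted p = 0.039), and the Notch target gene Hey1 (2.26 ± 0.49, adjusted p = 0.043). For Angpt2 1 ND array of 9 months was near background. Vegfa, the ligand of Kdr, was at -0.35 ± 0.30 and -0.12 ± 0.30. Over both durations 6 of 15 rose, led by Notch4 (0.77 ± 0.13), Angpt2, Flt1 (a decoy receptor for VEGF, 0.81 ± 0.19) and Hey1. Of 15 genes of endothelial signals to hepatocytes and of vessel zones, 12 were tested and 0 passed at either time, while Wnt2 and Wnt9b were not well above background on both arrays of any group. Over both durations 3 of these 12 rose and 2 fell. The 4 with the smallest p were Hgf (0.88 ± 0.21), Ltbp4 (0.52 ± 0.13), Kit (0.54 ± 0.15) and Adgrg6. Hgf is also counted among the stellate cell and fibroblast markers below. Adgrg6 was called lower but was not well above background on any HFD array or on 1 ND array of 3 months, so no size is given. It passed the filter for dim probes only through ND 9 months.

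Genes of endothelial activation, through which white blood cells attach, included 9 tested of 12. At 3 months Vcam1 (2.05 ± 0.36, adjusted p = 0.033) and Icam1 (at least 2.11-fold, means of -2.81 and -4.16, adjusted p = 0.042, not well above background on ND) rose. On ND, Icam1 rose from 3 to 9 months, at least 3.56-fold (means of -4.16 and -2.05, adjusted p = 0.031). Basement membrane genes, 9 of 9 tested, had 2 higher at 3 months, Col4a2 (1.13 ± 0.17) and Col4a1 (1.62 ± 0.27). At 9 months 3 were higher, Nid1 (1.86 ± 0.33), Col4a1 (1.39 ± 0.27) and Lama4 (1.02 ± 0.20). Over both durations 5 rose and 1, Nid2, fell (-0.93 ± 0.25, with 1 HFD array of 9 months near background). In activation genes the medians were 0.64 and 0.68, in basement membrane genes 0.78 and 0.68.

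**Figure D4:**
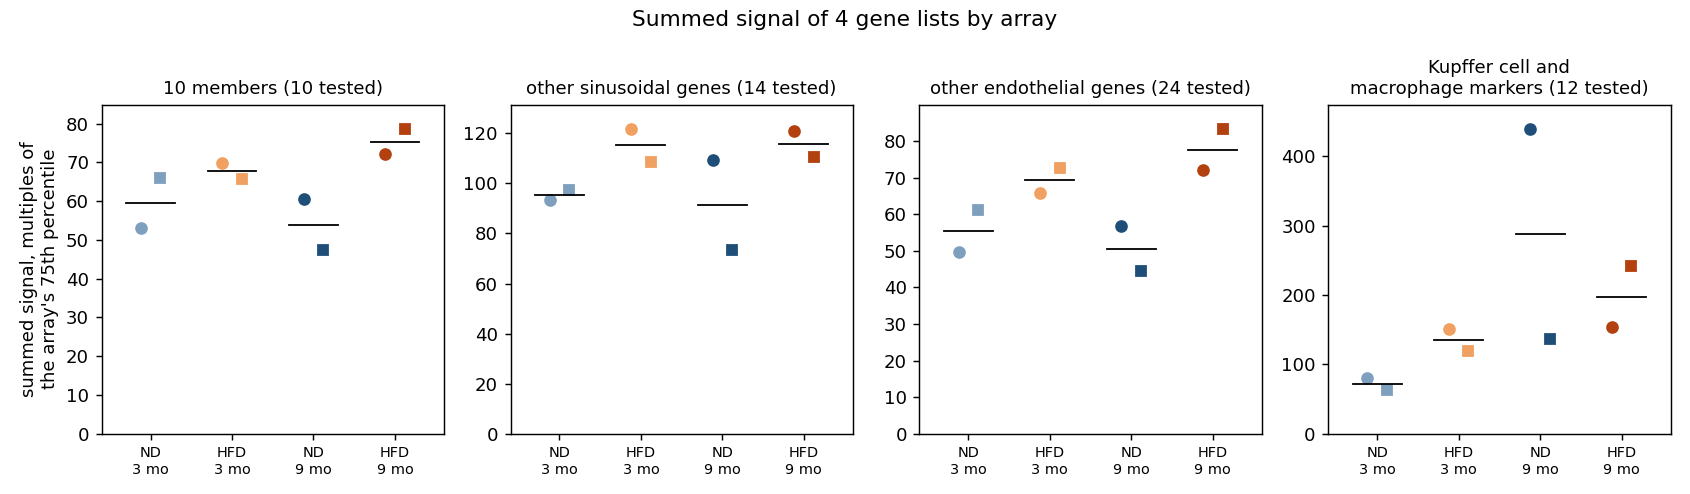
Summed signal of 4 gene lists on each array (vertical axis, in multiples of the array's 75th percentile, starting at 0), by diet and feeding time. Circles are mouse 1, squares mouse 2 and lines group means. Macrophage markers reach 439 on 1 ND array of 9 months. The other endothelial genes (24 pan-endothelial) lie between 44.4 and 61.0 on ND and between 65.8 and 83.3 on HFD. The summed level of the 10 markers overlapped at 3 months, at 53.0 to 65.9 on ND and 65.6 to 69.8 on HFD. At 9 months it did not, at 47.3 to 60.6 and 72.2 to 78.6. The 14 other sinusoidal genes parted the diets at each time. Across times they overlapped, with 109.5 on 1 ND array of 9 months and 108.7 on 1 HFD array of 3 months.

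Markers of other liver cells differed between the same groups. Of 14 Kupffer cell and macrophage markers 12 were tested. At 3 months 11 differences were positive and 0 passed (median 1.61), and the summed level was 63.5 to 80.0 on ND and 119 to 151 on HFD. After 9 months it was 137 to 439 on ND and 154 to 242 on HFD, the 439 being that of ND replicate 1, with a median difference of 0.30. From 3 to 9 months on ND all 12 differences were positive (median 1.73, 0 passed), in the comparison where Lyve1 had its largest difference with time. Stellate cell and fibroblast markers, 11 of 12 tested, had medians of 0.83 and 0.95 and summed levels of 82.6 to 118 on ND and 111 to 143 on HFD. Pdgfra (0.95 ± 0.20, limma, adjusted p = 0.0499) rose at 3 months, and Lum (1.42 ± 0.25) and Rgs5 (1.64 ± 0.34) rose at 9 months. Over both durations 8 of these 11 markers rose and 0 fell, beside 10.3% and 11.8% of all features, while 0 of the 12 macrophage markers passed. Hepatocyte markers, 12 of 12 tested, had medians of -0.54 and -0.15, with 1 fall, that of Tat at 9 months. Over both durations 3 of the 12 fell (Ass1, Tat and Hnf4a) and 0 rose. The summed level of the 12 at 3 months was 7458 to 8330 on ND and 5146 to 5363 on HFD. At 9 months it was 6897 to 6960 on ND and 4840 to 8484 on HFD, where the diets overlapped. The part of these cell types in the endothelial values was not tested.

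The smaller lists gave few calls. Of lymphatic markers 4 of 5 were tested, with Flt4 as the 1 call, at 9 months. Among T and NK cell markers 4 of 8 were tested and Cd4 fell at both times (-2.24 ± 0.35 at 3 months). Cd3e was at -2.17 ± 0.52 and -1.17 ± 0.52 and did not pass at either time, but both Cd4 and Cd3e fell over both durations. Gzma was at 0.75 ± 0.36 and 0.46 ± 0.36 and Cd3d at 1.04 ± 0.82 and -0.43 ± 0.82. The summed level of the 4 ran from 157 to 226 in ND mice and from 23.5 to 55.4 in HFD mice. A sum of signals before the log is weighted to its brightest probe, so this one does not stand for the 4 markers alike. It separated the diets although its members did not all move one way. Its part in the endothelial values was not tested. Bile duct markers (3 of 6 tested) and red cell markers (3 of 5) had 0 calls between diets at either time. Of adipocyte markers 2 of 6 were tested, and Fabp4 rose at 9 months, while the defining genes Adipoq, Lep and Plin1 were not well above background on both arrays of any group.

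The genes whose profile over the 8 arrays was closest to that of Lyve1 were Vcam1, Fbln7 and Unc5b, by the root mean square difference of centred log2 levels (0.28, 0.29 and 0.30, against 1.07 for the size of the Lyve1 profile itself). The group means of Vcam1 were -0.48, 1.57, 0.82 and 2.24 in ND 3 months, HFD 3 months, ND 9 months and HFD 9 months, against -1.69, 0.59, -0.08 and 1.04 for Lyve1. Both genes had the same order of ND groups below HFD groups. Because Vcam1 was picked for its closeness to Lyve1 on these arrays, that is no separate result. Close to Stab2 were Vopp1 and BC147527 (0.14 and 0.15, against 0.68), and closest to Pecam1 were Cers5, Rhpn2 and Rtf2 (0.096 to 0.12, against 0.26). Among the 10 markers themselves the pair with the smallest such difference was Clec4g and Fcgr2b (0.20).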

How the data were processed

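The authors deposited 1 scanner table per array, made with Agilent Feature Extraction (version 10.7.1.1 per the submitters' processing notes). Per the file headers the intensity used here had its background subtracted and its trend over the slide removed, with no scaling between arrays, and the deposited flags are other values, 0 or 1 per spot. The authors' value table holds log2 values in the same rank order as the median spot signals of each array (rho = 1, Spearman), with a median of 7.14 in each column.

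Here 3671 control spots were left out, spots with an outlier flag were dropped, log2 signals (pseudocount 0) were centred on each array's 75th percentile and spots of a probe averaged. A probe was kept if some group had it well above background on both its arrays (25800 probes). A gene was tested by its kept probe with the highest mean, which gave 20164 features, 12885 of them with a symbol from a RefSeq table of GRCm38.p6. Tests used limma 3.58.1 in R 4.3.3 on 4 group means (4 residual degrees of freedom, prior 2.33), and diet with duration as a covariate for both durations. The code was tested on simulated data. Per the labels the arrays hold RNA of separate mice. Genes named are the 10 markers, up to 4 called genes per list with the smallest p, and the 3 genes closest in profile to Lyve1, Stab2 and Pecam1. Cd22, Cd3d, Cd3e, Gzma, Cd36, Nid2, Tat, Fabp4 and the genes named as not passing or near background were named after their values were seen. Some genes that this rule names are not reported here. The members and lists were chosen with earlier results of these data known. In the alternatives normexp (offset 50) took the median signal. Probe sequences and proteins were not used here. Same-numbered arrays of different groups did not deviate together (correlations of -0.02 to 0.14).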

Additional observations from a re-analysis of the deposited data

How the results depend on the processing

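Of 1240 member values recomputed, 1152 kept their direction and side of the threshold, 26 lost a call, 19 gained one and 43 changed sign, of which 0 were called after the change. The causes were not tested, save that leaving out an array leaves 1 in its group, taken to vary like the others. At 3 months the count of called members was 0 with no filter on dim probes (68 features called in all), 2 when only the 4 arrays of that time were fitted and 3 under array weights, and 0 to 2 with 1 array left out. At 9 months it was 1 (Stab2) with normexp, the authors' value table, probes above background on all arrays, or trend and robust moderation, and 0 to 2 with 1 array left out. From 3 to 9 months on ND it was 1 (Lyve1) with array weights and 0 to 1 with 1 array left out. Over both durations it was 1 (Lyve1) with no filter, 1 to 4 with 1 array left out, and 5 with normexp or the authors' value table (with Stab1) and with array weights (with Plvap). With the replicate number as a replicate block the counts were 1 at 3 months, 0 at 9 months and 4 over both, as without it. Counts over all features moved by over 1.5 times too. With array weights they were 3972 at 3 months, 276 at 9 months and 1409 on ND with time, against 1045, 1670 and 209. With the replicate block the count was 56 on ND with time. Counts over all features also varied widely with 1 array left out. Member counts of different settings therefore do not share 1 background, and its share is not given for each setting. Sinusoidal genes higher without overlap at both times were 5 of 5 in all added settings except quantile normalization (4, without Stab1). Vascular ones were 1 (Vwf) with normexp or the authors' value table, 1 (Kdr) with its other probe and 0 to 2 with 1 array left out. The diet differences of Kdr changed sign only with its other probe. Kdr was no longer lower without overlap at both times under quantile normalization, normexp, the authors' value table, the mean of probes or its other probe. These last settings were chosen after seeing the data. Leaving out an array, the mean of probes and the other Kdr probe could not have made the sinusoidal genes overlap. The share of all features separated in each of these settings is not given here.

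By its other probe Kdr, called lower over both durations by the brighter one, was at 0.36 there, 0.29 at 3 months, 0.44 at 9 months and -0.14 on HFD with time. The further values that changed sign had not been called. Under quantile normalization the change on ND with time was 0.033 for Stab1 and 0.0019 for Stab2. Centred on probes above background it was 0.034 for Stab1. With normexp it was 0.044 for Stab1 and 0.033 for Stab2, on HFD 0.15 for Cdh5 and 0.0060 for Clec4g, and the 9-month diet difference of Cdh5 was -0.0015. With the authors' value table it was 0.050 for Stab1 and 0.044 for Stab2, on HFD 0.14 for Cdh5, and between diets -0.0098 for Cdh5. With 1 array left out, the diet difference ran from -0.076 to 0.80 for Vwf at 3 months, and at 9 months from -0.33 to 0.14 for Pecam1, -0.41 to 0.74 for Cdh5 and -0.17 to 0.50 for Plvap. Over both durations Pecam1 ran from -0.017 to 0.22. On ND with time the ranges were -0.14 to 0.11 (Stab1), -0.74 to 0.055 (Clec4g), -0.76 to 0.10 (Fcgr2b), -0.14 to 1.01 (Cdh5) and -0.14 to 0.21 (Vwf). On HFD they were -0.020 to 0.91 (Lyve1), -0.0034 to 0.95 (Stab2), -0.50 to 0.23 (Clec4g), -0.31 to 0.019 (Fcgr2b), -0.044 to 0.43 (Pecam1), -0.35 to 0.72 (Kdr), -0.45 to 0.23 (Cdh5) and -0.34 to 0.19 (Plvap). The difference between durations ran from -0.19 to 0.61 (Clec4g), -0.25 to 0.62 (Fcgr2b) and -1.12 to 0.027 (Cdh5). Only 2 arrays a group and 1 slide a diet limit all of these values.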
